A study of Mus musculus with 14 samples.

Results

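The genes described here are the serpins of mouse liver, a family of protease inhibitors and of relatives that lost inhibitory activity and carry hormones or assist protein folding. Members were all gene symbols in the count files that begin with Serpin. Serpinc1, Serpind1, Serpinf2 and Serping1 were left out by name, and Serpina4-ps1 was left out as a pseudogene. This left 58 of 63 such symbols, among 24411 genes. By prefix they were 6 Serpina1 copies, 11 Serpina3 copies, 7 other Serpina genes, 27 Serpinb genes, 3 Serpine genes and 4 genes of the Serpinf, Serpinh and Serpini groups. Serpine2 was the only member that passed the test in a comparison: it was 3.32-fold lower in livers with the Rbbp5 deletion than in controls with vehicle, and 3.81-fold lower after tunicamycin.

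Liver RNA came from male littermate mice aged 5 to 7 months. All mice carried the alleles Rbbp5 (flox/flox). WT mice had Alb-CRE (-/-), and mice of the liver knockout (RBBP5 LKO, spelled RRBP5 LKO in some labels) had Alb-CRE (+/-), which is Cre under the albumin promoter, active in hepatocytes. Rbbp5 encodes a core subunit of the complexes that place methyl groups on lysine 4 of histone H3. Mice were injected intraperitoneally in the morning with tunicamycin, which blocks N-linked glycosylation and so burdens the endoplasmic reticulum, at 0.05 mg/kg in 500 µl of PBS with 3% DMSO, or with that vehicle alone. The liver was removed 8 h after injection. Libraries numbered 3 for WT and 4 for LKO under each treatment. Libraries 3 and 4 of LKO vehicle differed from each other hardly beyond sampling noise and were counted as 1 sample (their sum, called sample 3-4), so the groups held 3 samples each, and 4 for LKO after tunicamycin. The labels do not state that each library is a separate mouse, so p-values measure the spread between these samples.

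A serpin folds into a metastable state with an exposed loop, the reactive centre loop, that a protease takes for a substrate. Cleavage lets the loop insert into the body of the serpin, and the protease is trapped and distorted. The residues of the loop set which proteases are caught. Hepatocytes secrete most of the plasma serpins, among them alpha-1-antitrypsin (the Serpina1 genes in the mouse) and the antichymotrypsin-like Serpina3 proteins, some of which are acute phase proteins. Serpins of the B group stay inside cells and protect them from their own or foreign proteases.

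Depth was 6507018 to 13519421 sense-strand reads on genes per library, of which Rn45s, the ribosomal RNA precursor gene, took 72.5 to 75.5%. That left 1704479 to 3551398 reads for all other genes, and the serpins took 2.01 to 3.00% of these in the 13 samples. Values are given in CPM (sense-strand counts brought to a common depth, Rn45s included, with library sizes scaled by TMM). Rbbp5 was at 4.07, 6.41 and 5.10 CPM with vehicle and 5.37, 5.03 and 5.71 CPM after tunicamycin in WT. In LKO it was at 4.15, 1.90 and 2.79 CPM with vehicle and 2.80, 3.12, 3.46 and 2.06 CPM after tunicamycin, so LKO vehicle sample 1 lay within the WT range. WT tunicamycin sample 3 stood apart from the other samples of its group, with a chi-square per degree of freedom of 25.1 to 25.5 against them. Among the markers of the tissue, 9 of the 10 hepatocyte genes listed were in the files and all had reads, with summed levels of 22541 to 35216 CPM.

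Of the 58 members, 18 had enough reads to be tested and 40 did not. No read fell on 17 of the untested members, and a count of 0 allows up to 3 reads per library. The other 23 untested members held at most 99 reads over all libraries (Serpina3g). The tested members were 5 Serpina1 copies, 3 Serpina3 copies, 5 other Serpina genes, Serpinb6a, Serpinb9, Serpine2, Serpinf1 and Serpinh1. Serpina3h and Serpinb10, both untested, are annotated as pseudogenes although their names carry no such tag.

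In the chromosome 12 cluster, 23 members lay within 797.7 kb (mm10, 103616675 to 104414329), 11 on the plus and 12 on the minus strand, and 12 of them were tested. Levels there were compared per length, as the FPKM the authors deposited. Serpina1e was highest with a mean of 1079.8 FPKM over the 13 samples (range 554 to 1461), followed by Serpina1c at 656 (547 to 744), Serpina1b at 544 (466 to 619), Serpina1a at 505 (419 to 603), Serpina3k at 417 (328 to 497) and Serpina1d at 367 (330.0 to 422). The ranges of neighbours in this order overlapped. A gap followed, with Serpina3n at 75.6 FPKM (16.2 to 166), Serpina3m at 30.6 (21.5 to 49.3), Serpina10 at 20.1 (9.25 to 36.1) and Serpina6 at 11.6 (7.59 to 17.2). Outside the cluster, Serpinf1 was at 19.4 FPKM (14.3 to 23.7), Serpina7 at 4.40 (1.15 to 9.50), and Serpine2, Serpinh1 and Serpinb6a were at 0.800, 0.794 and 0.744.

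**Figure D1:**
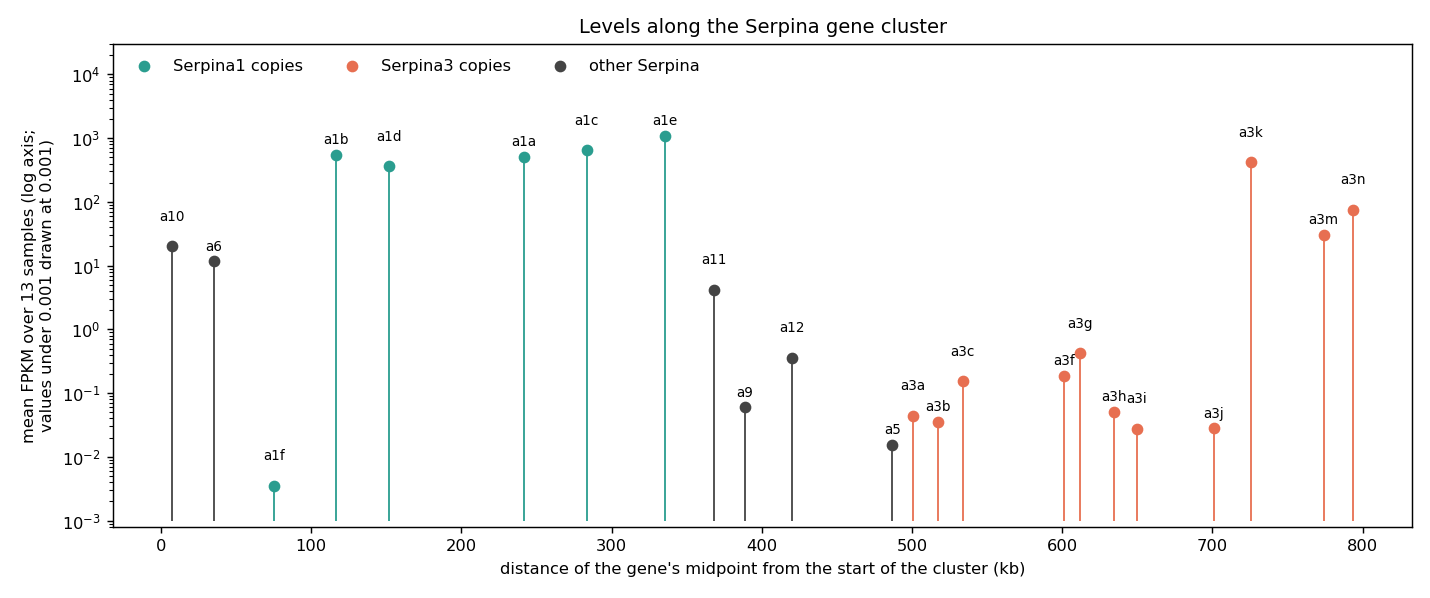
Mean FPKM over 13 samples (log axis) of the 23 members of the chromosome 12 cluster, against the distance of each gene's midpoint from the cluster's start in kb. The 5 expressed Serpina1 copies and Serpina3k stand between 367 and 1079.8 FPKM, while Serpina1f and the Serpina3 copies other than Serpina3k, Serpina3m and Serpina3n stand under 0.5 FPKM.

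Counts of called members were small in each comparison, as were the counts over all 9644 genes tested (edgeR quasi-likelihood test, Benjamini-Hochberg adjusted p under 0.05 over all of them). For tunicamycin against vehicle in WT, 0 of 18 tested members were called, beside 0.363% of all genes. Of these members 12 were higher and 6 lower after tunicamycin, and 5 had an unadjusted p under 0.05, all of them higher, beside 14.8% of all genes. For tunicamycin against vehicle in LKO, 0 of 18 were called, beside 0.0311% of all genes, with 13 higher, 5 lower, and an unadjusted p under 0.05 for 4 that were higher and 2 that were lower, beside 12.2% of all genes. DESeq2 called 1 member, Serpina10, in each of these, beside 153 of all 16249 genes it tested in WT and 46 in LKO. For LKO against WT, 1 of 18 was called with vehicle, beside 0.0415% of all genes, and 1 of 18 after tunicamycin, beside 0.861%, in both cases Serpine2. With vehicle 9 members were higher and 9 lower in LKO, and 2 had an unadjusted p under 0.05, beside 8.15% of all genes. After tunicamycin 6 were higher and 12 lower, and 3 had an unadjusted p under 0.05, beside 15.8% of all genes. The interaction (the tunicamycin effect in LKO minus that in WT) called 0 of 18 members in edgeR and in DESeq2, beside 0% of all genes, and no member had an unadjusted p under 0.05 in edgeR.

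The ranges of CPM in the groups compared did not overlap for 1, 3, 4 and 4 tested members in these comparisons, taken in the same order without the interaction. Over all genes tested the shares were 17.3%, 11.6%, 15.1% and 12.9%. The median log2 fold change of the tested members was 0.08 for tunicamycin in WT, 0.16 for tunicamycin in LKO, 0.00 for the genotypes with vehicle and -0.08 after tunicamycin, against medians over all genes of 0.01, 0.00, 0.00 and -0.01. With library sizes left at total counts, the median of all genes moved to -0.18 for tunicamycin in WT and to 0.14 for LKO against WT after tunicamycin. Under that scaling 8 tested members were higher and 10 lower for tunicamycin in WT, 11 and 7 for tunicamycin in LKO, and 10 and 8 for LKO against WT after tunicamycin, where TMM gave 6 and 12. For the interaction, 3 members were higher and 15 lower with TMM, and 9 and 9 with total counts, so these directions are relative to the bulk of genes.

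**Figure D2:**
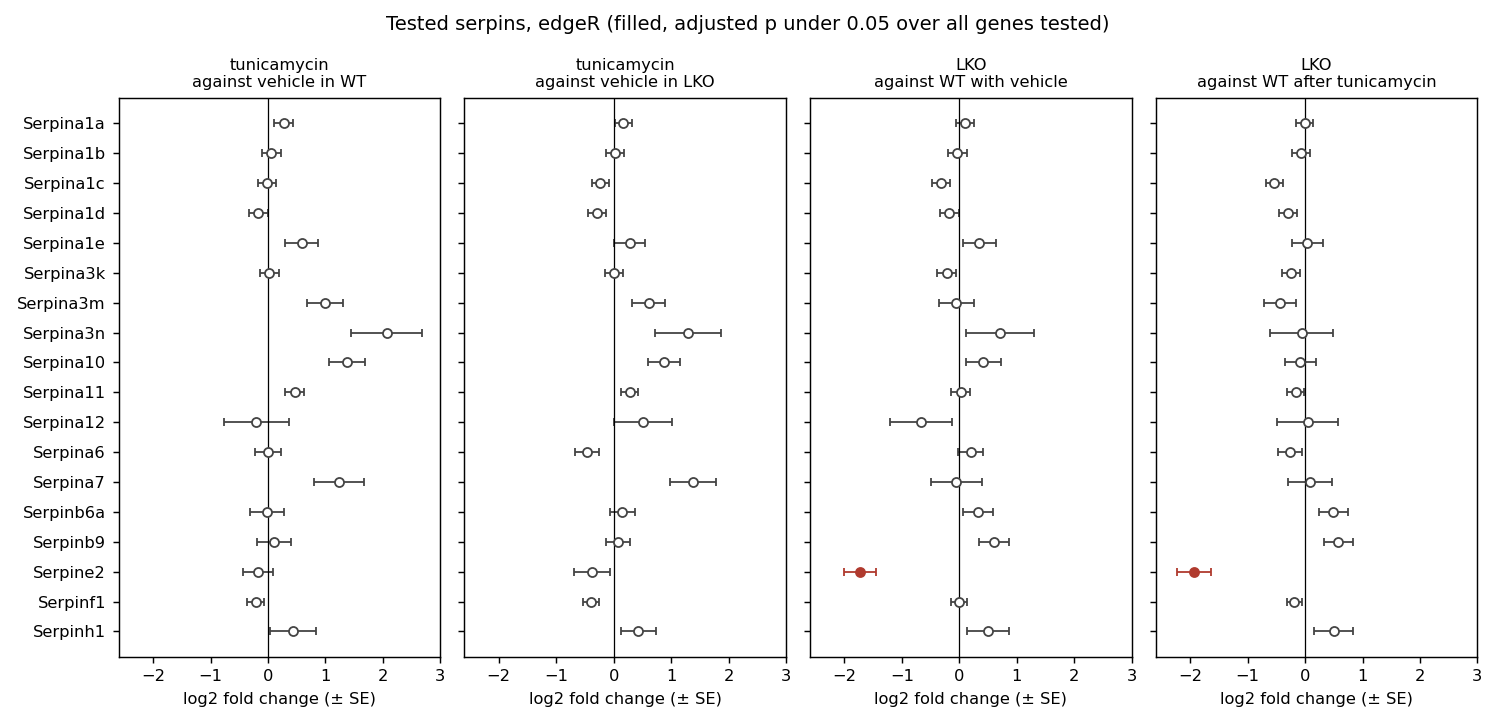
Log2 fold change with its SE (horizontal axis) of the 18 tested members in 4 comparisons, from edgeR over 13 samples, with filled points for members called at an adjusted p under 0.05. Serpine2, at -1.73 and -1.93 in LKO against WT, is the only filled point.

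The Serpina1 genes are the mouse counterparts of the human gene for alpha-1-antitrypsin, the plasma inhibitor of neutrophil elastase and related proteases. Humans have a single such gene, while the mouse has several copies. The copies differ in the reactive centre loop, and which proteases each one inhibits was not tested. Over their coding sequence the 5 expressed copies shared 96.3 to 98.5% of bases. The stretch that holds the reactive centre loop is shown because it sets which protease is caught and is a stretch by which reads of the copies can be told apart. Each line is the coding strand from the conserved hinge before the loop (GENCODE M21 transcripts on GRCm38, coding positions 1081 to 1146, or 1150 to 1215 in Serpina1a), with capitals at the 13 of 66 positions where the copies differ.
Serpina1a: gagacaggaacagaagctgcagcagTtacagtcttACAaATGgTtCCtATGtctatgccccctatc
Serpina1b: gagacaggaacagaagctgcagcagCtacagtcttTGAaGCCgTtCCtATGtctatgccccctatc
Serpina1c: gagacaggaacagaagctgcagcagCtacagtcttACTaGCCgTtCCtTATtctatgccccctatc
Serpina1d: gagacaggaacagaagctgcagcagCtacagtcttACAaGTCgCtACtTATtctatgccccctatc
Serpina1e: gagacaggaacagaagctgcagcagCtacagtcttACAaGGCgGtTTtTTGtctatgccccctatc

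Because the copies are so alike, their counts are uncertain. The count files list multimapping reads apart from the genes, so a copy's count rests on the reads that match it alone. Of all stretches of 75 coding bases, an illustrative length, the share found in no other serpin was 31.8% in Serpina1c, 37.1% in Serpina1a, 61.9% in Serpina1d, 66.3% in Serpina1b and 74.7% in Serpina1e. Serpina1c took 12% ± 3.33 (SD, n = 13) of the reads on Serpina1 copies and 21.0% ± 2.42 of their FPKM, and Serpina1e took 54.9% ± 7.43 of the reads and 33.8% ± 5.12 of the FPKM. Serpina1b took 16.3% ± 2.06 of the reads and 17.4% ± 1.06 of the FPKM, so it came before Serpina1c by reads and after it by FPKM. Both have 1242 coding bases, and the cause of the change in order was not tested.

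Serpina1e (chromosome 12, 103946932 to 103956897) had the largest SD relative to its mean of the 5 copies in each of the 4 groups. It stood at 1229.6, 2600.0 and 2163 CPM in WT vehicle, 2956, 3897 and 2142 CPM in WT tunicamycin, 3137, 2609 and 1873 CPM in LKO vehicle, and 3559.7, 3583, 2713 and 2458 CPM in LKO tunicamycin. The groups overlapped in every comparison, and WT vehicle sample 1 was the lowest of all. The log2 difference was 0.59 ± 0.29 (SE) for tunicamycin in WT, with an adjusted p of 0.352 (edgeR), and 0.28 ± 0.27 in LKO, with an adjusted p of 0.746.

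Serpina1c (chromosome 12, 103894926 to 103904950) was lower in LKO in every sample, without passing the test. It stood at 658, 658 and 642 CPM in WT vehicle, 635, 676 and 624 CPM in WT tunicamycin, 493, 558 and 517 CPM in LKO vehicle, and 553, 403, 375 and 450.5 CPM in LKO tunicamycin. All LKO samples lay below all WT samples, at 375 to 558 against 624 to 676 CPM. The log2 difference of LKO against WT was -0.32 ± 0.16 with vehicle (adjusted p of 0.618 in edgeR) and -0.53 ± 0.15 after tunicamycin (adjusted p of 0.0955), so neither passed the test. DESeq2 called Serpina1c in LKO against WT after tunicamycin. In FPKM the groups overlapped, at 626 to 722 in WT tunicamycin and 547 to 744 in LKO tunicamycin.

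Serpina1a, Serpina1b and Serpina1d were not called in any comparison. Serpina1a stood at 318, 381 and 352 CPM in WT vehicle, 373, 523 and 372 CPM in WT tunicamycin, 376, 398 and 351 CPM in LKO vehicle, and 468, 429.6, 404 and 387 CPM in LKO tunicamycin. WT tunicamycin sample 2 was the highest, and the log2 differences of Serpina1a ran from 0.00 to 0.27 over the comparisons of groups. Serpina1b stood at 682, 869.5 and 761 CPM in WT vehicle, 668, 933 and 800.2 CPM in WT tunicamycin, 818, 732 and 703 CPM in LKO vehicle, and 823, 794, 702 and 727 CPM in LKO tunicamycin, with log2 differences from -0.07 to 0.05. Serpina1d stood at 413, 516 and 449 CPM in WT vehicle, 328, 423 and 476 CPM in WT tunicamycin, 485, 380.4 and 357 CPM in LKO vehicle, and 339, 361, 311 and 323 CPM in LKO tunicamycin. The LKO tunicamycin values of Serpina1d were low, and 1 of them overlapped LKO vehicle. Serpina1d had a log2 difference of -0.29 ± 0.16 for tunicamycin in LKO (adjusted p of 0.497, edgeR) and -0.17 ± 0.17 in WT (adjusted p of 0.692). Summed over the copies, Serpina1 was at 4231 ± 871 CPM with vehicle and 5275 ± 1054 CPM after tunicamycin in WT (SD, n = 3 each). In LKO the sum was 4596 ± 757 CPM with vehicle (n = 3) and 5041 ± 717 CPM after tunicamycin (n = 4). These sums overlapped between all groups, with a log2 difference of 0.32 ± 0.23 for tunicamycin in WT (adjusted p of 0.549) and 0.13 ± 0.21 in LKO (adjusted p of 0.858). No read fell on Serpina1f in any library.

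**Figure D3:**
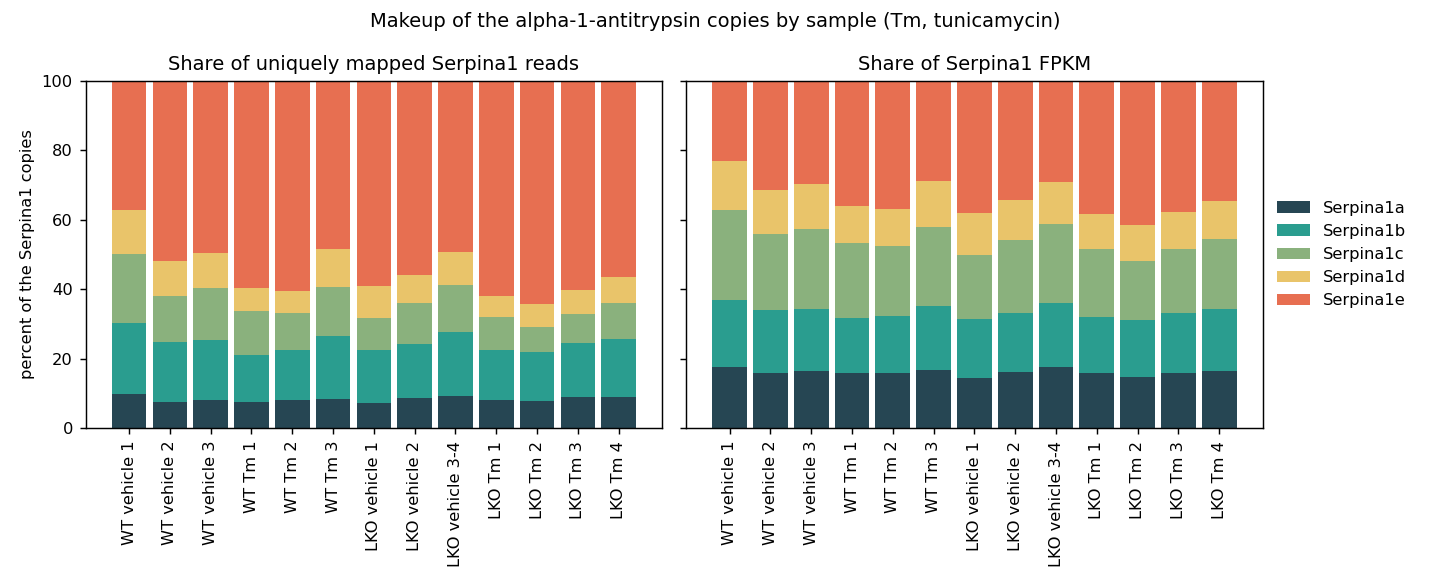
Makeup of the 5 expressed Serpina1 copies in each of the 13 samples, as a percent of their uniquely mapped reads (left) and of their FPKM (right). Serpina1e takes 37.3 to 64.3% of the reads and 23.1 to 41.5% of the FPKM.

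The Serpina3 genes are a mouse expansion of the gene for alpha-1-antichymotrypsin, an inhibitor of cathepsin G and chymotrypsin-like proteases. Serpina3k, Serpina3m and Serpina3n were expressed and shared 82.9 to 91.6% of their coding bases, less than the Serpina1 copies. The same stretch after the hinge is shown because the copies part there (coding positions 1099 to 1164 in Serpina3k and 1093 to 1158 in the others), with capitals at the 28 of 66 positions that differ.
Serpina3k: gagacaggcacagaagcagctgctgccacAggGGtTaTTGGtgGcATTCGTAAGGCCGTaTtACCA
Serpina3m: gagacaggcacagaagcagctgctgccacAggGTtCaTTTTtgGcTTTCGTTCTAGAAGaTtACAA
Serpina3n: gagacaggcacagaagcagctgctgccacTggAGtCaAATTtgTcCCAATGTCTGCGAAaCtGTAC
Of their 75-base stretches, 87.7%, 87.1% and 97.8% were found in no other serpin, so these copies are better separated than those of Serpina1.

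Serpina3n (chromosome 12, 104406708 to 104414329) is an acute phase serpin, and its level ranged from 70.2 to 816 CPM. It stood at 70.2, 128 and 163 CPM in WT vehicle and 601, 816 and 93.4 CPM in WT tunicamycin. In LKO it stood at 122, 350 and 118 CPM with vehicle and 712, 641, 297 and 280 CPM after tunicamycin. Tunicamycin samples 1 and 2 of WT were the high ones, sample 3 lay within the WT vehicle range, and LKO vehicle sample 2 lay above 2 of the LKO tunicamycin samples. The log2 difference for tunicamycin was 2.06 ± 0.61 in WT (unadjusted p of 0.0037, adjusted p of 0.128, edgeR) and 1.29 ± 0.57 in LKO (adjusted p of 0.371), and neither was called. For LKO against WT with vehicle, Serpina3n had a log2 difference of 0.71 ± 0.59 (adjusted p of 0.798, edgeR), which was -0.0068 without LKO vehicle sample 2.

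Serpina3m (chromosome 12, 104387164 to 104394257) had the same high samples. It stood at 45.5, 45.0 and 56.7 CPM in WT vehicle, 126, 122 and 43.7 CPM in WT tunicamycin, 43.1, 52.3 and 45.9 CPM in LKO vehicle, and 89.9, 93.6, 50.5 and 55.2 CPM in LKO tunicamycin. The 4 samples with the most Serpina3m, samples 1 and 2 of both tunicamycin groups, were also the 4 with the most Serpina3n. The log2 difference for tunicamycin was 0.99 ± 0.31 in WT (adjusted p of 0.145, edgeR) and 0.61 ± 0.29 in LKO (adjusted p of 0.405).

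Serpina3k (chromosome 12, 104338486 to 104345739), which encodes the kallikrein-binding protein, made up most of the Serpina3 reads and held its level after tunicamycin within 0.03 on the log2 scale. It stood at 1436, 1679 and 1359 CPM in WT vehicle, 1574, 1574 and 1406 CPM in WT tunicamycin, 1334, 1339 and 1161 CPM in LKO vehicle, and 1406, 1389.5, 1014 and 1312 CPM in LKO tunicamycin. Every LKO sample lay below every WT sample with the same treatment, narrowly so after tunicamycin. The log2 difference of LKO against WT was -0.22 ± 0.17 with vehicle (adjusted p of 0.775, edgeR) and -0.25 ± 0.16 after tunicamycin (adjusted p of 0.492). As a share of all Serpina3 reads, Serpina3k took 89.7% ± 3.33 (SD, n = 3) in WT vehicle and 74.0% ± 15 (n = 3) in WT tunicamycin, and Serpina3n took 7.25% ± 2.92 and 21.5% ± 13.8. In LKO the shares were 84.4% ± 6.55 (n = 3) and 70.7% ± 7.54 (n = 4) for Serpina3k, and 12.4% ± 6.69 and 25.3% ± 7.14 for Serpina3n. The 8 other Serpina3 copies were not tested.

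Among the other Serpina genes, Serpina10 (chromosome 12, 103616675 to 103631444) encodes the protein Z-dependent inhibitor of coagulation factor Xa. It stood at 30.3, 34.3 and 38.8 CPM in WT vehicle, 114, 111 and 42.9 CPM in WT tunicamycin, 39.6, 65.8 and 32.5 CPM in LKO vehicle, and 78.7, 106, 83.5 and 69.9 CPM in LKO tunicamycin. The tunicamycin samples lay above the vehicle samples in both genotypes, in WT by little for sample 3. The log2 difference for tunicamycin was 1.38 ± 0.31 in WT (adjusted p of 0.0558, edgeR) and 0.88 ± 0.28 in LKO (adjusted p of 0.259), so Serpina10 was not called in either.

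Serpina7 (chromosome X, 139079250 to 139085236) encodes thyroxine-binding globulin, and Serpina6 (chromosome 12, 103646632 to 103657071) encodes corticosteroid-binding globulin, both hormone carriers without inhibitory activity. Serpina7 stood at 19.3, 5.89 and 12 CPM in WT vehicle, 47.6, 17.7 and 21.8 CPM in WT tunicamycin, 9.36, 17.2 and 9.20 CPM in LKO vehicle, and 22.1, 49.6, 32.9 and 20.1 CPM in LKO tunicamycin. The groups overlapped in WT and did not overlap in LKO. The log2 difference for tunicamycin was 1.23 ± 0.43 in WT (adjusted p of 0.194, edgeR) and 1.38 ± 0.40 in LKO (adjusted p of 0.220). Serpina6 stood at 36.3, 32.7 and 39.9 CPM in WT vehicle, 30.8, 25.3 and 52.9 CPM in WT tunicamycin, 50.6, 35 and 39.6 CPM in LKO vehicle, and 23.1, 29.8, 35.9 and 31.6 CPM in LKO tunicamycin. WT tunicamycin sample 3 held the highest Serpina6 value of all samples. The log2 difference of Serpina6 for tunicamycin was 0.00 ± 0.22 in WT (adjusted p of 0.996) and -0.46 ± 0.20 in LKO (adjusted p of 0.373). Serpina11 ranged from 10.0 to 17.2 CPM, and Serpina12, which encodes the adipokine vaspin, from 0.355 to 5.65 CPM. For tunicamycin in WT, Serpina11 had a log2 difference of 0.46 ± 0.16 (adjusted p of 0.196) and Serpina12 of -0.21 ± 0.57 (adjusted p of 0.904).

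Without WT tunicamycin sample 3, 4 members were called for tunicamycin in WT, beside 6.19% of all genes: Serpina10, Serpina11, Serpina3m and Serpina3n, all higher. Serpina10 then had a log2 difference of 1.71 with an adjusted p of 0.000624 (edgeR), and Serpina3n 2.56 with 0.00403. That sample was not low in the genes that report endoplasmic reticulum stress. Hspa5, which encodes the chaperone BiP, was at 854, 313 and 786 CPM in WT tunicamycin samples 1 to 3, and Ddit3, which encodes CHOP, at 26.3, 1.30 and 20.4 CPM, so the sample with the most Serpina3n had the least Hspa5 and Ddit3 of the group. In LKO, Hspa5 stood at 117 to 173 CPM with vehicle and 142 to 229 CPM after tunicamycin. In unscaled reads, WT vehicle samples 1 to 3 held 1643, 1644 and 1733 for Hspa5, against 6208, 1931 and 5089 in WT tunicamycin. For Ddit3 the reads were 10, 5 and 13 in WT vehicle, against 191, 8 and 132 in WT tunicamycin. The part of endoplasmic reticulum stress in the serpin differences was not tested.

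Markers of other cell types are given beside these serpins because their summed levels also differed between the samples. The 9 neutrophil markers in the files (2 of them tested, none called) summed to 0.5 to 1.2 CPM in WT vehicle, 9.5, 5.7 and 0.6 CPM in WT tunicamycin samples 1 to 3, 1.1 to 3.1 CPM in LKO vehicle and 5.3 to 10.4 CPM in LKO tunicamycin. The 10 bile duct markers (3 tested, none called) summed to 11.4 to 15.6 CPM in WT vehicle, 46.1, 36.2 and 11.4 CPM in WT tunicamycin, 21.6 to 60.8 CPM in LKO vehicle and 39.4 to 117 CPM in LKO tunicamycin. The 3 tested did not move alike. Their log2 differences for tunicamycin ran from -0.0011 to 1.68 in WT and from -0.096 to 0.81 in LKO. The 10 Kupffer cell and macrophage markers were all higher after tunicamycin in both genotypes, beside 51.7% of all genes in WT and 50.8% in LKO, with none called. At an unadjusted p under 0.05 (edgeR) there were 0 in WT, beside 14.8% of all genes, and 7 in LKO, beside 12.2%. Their median log2 differences were 0.24 in WT and 0.55 in LKO. The 10 markers summed to 59.5 to 70.3 CPM in WT vehicle and 66.8 to 89.9 CPM in WT tunicamycin. In LKO the sums were 45.3 to 75.8 CPM with vehicle and 72.7 to 138 CPM after tunicamycin. No marker of these 3 lists was at 0 over all samples. Their part in the serpin differences was not tested.

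**Figure D4:**
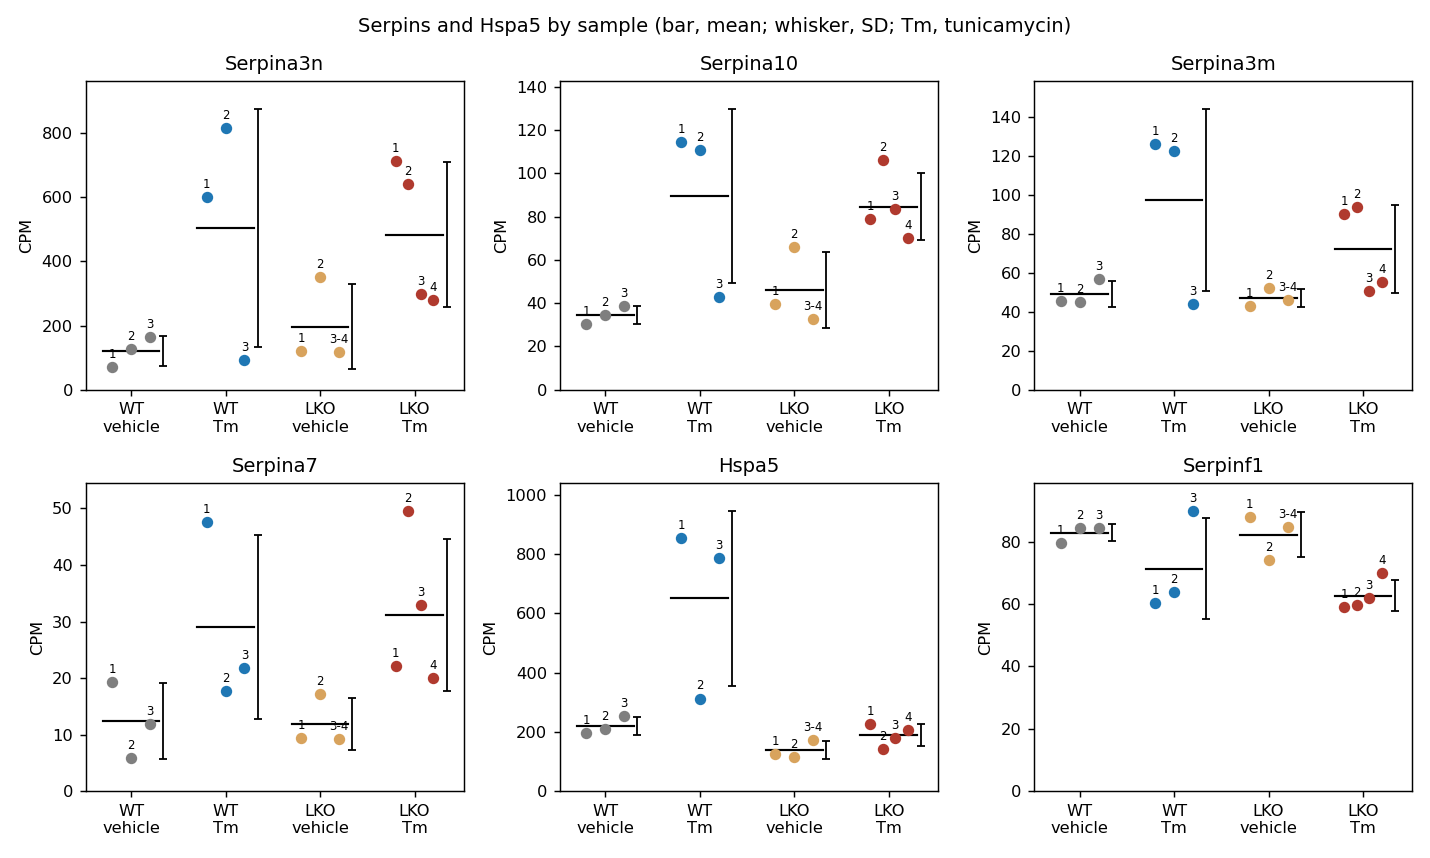
CPM of 5 serpins and of Hspa5 in each sample (points, numbered by replicate) with the group mean (bar) and SD (whisker). WT tunicamycin sample 3 lies near the vehicle samples for Serpina3n (93.4 CPM), Serpina10 (42.9 CPM) and Serpina3m (43.7 CPM), and with sample 1 for Hspa5 (786 CPM).

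Serpinf1 (chromosome 11, 75410029 to 75422623) encodes pigment epithelium-derived factor, a secreted serpin without inhibitory activity that limits blood vessel growth. It stood at 79.6, 84.4 and 84.4 CPM in WT vehicle, 60.3, 63.7 and 89.8 CPM in WT tunicamycin, 87.8, 74.2 and 84.7 CPM in LKO vehicle, and 58.9, 59.7, 62.0 and 69.8 CPM in LKO tunicamycin. In LKO every tunicamycin sample lay below every vehicle sample, and in WT samples 1 and 2 did. The log2 difference was -0.22 ± 0.14 in WT (adjusted p of 0.519, edgeR) and -0.39 ± 0.13 in LKO (adjusted p of 0.281). WT tunicamycin sample 3 held the highest Serpinf1 value of all samples.

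Serpinh1 (chromosome 7, 99345375 to 99353239) encodes HSP47, the collagen chaperone of the endoplasmic reticulum. It ranged from 1.87 to 6.12 CPM, on 14 to 69 reads per sample, with log2 differences from 0.43 to 0.50 in the 4 comparisons of groups and standard errors of 0.31 to 0.41. Of the 18 genes of collagen and its processing listed with it, 16 were tested and 0 were called in any comparison by edgeR. DESeq2 called 1 (Ppib) for tunicamycin in WT, beside 153 of all 16249 genes it tested. For LKO against WT it called 2 (Col1a1 and Col1a2) with vehicle, beside 15 of all genes, and 1 (Col1a2) after tunicamycin, beside 130. At an unadjusted p under 0.05 in edgeR, 6 of the 16 were higher and 1 lower in LKO than in WT with vehicle, beside 8.15% of all genes. After tunicamycin 5 were higher and 2 lower, beside 15.8%. For tunicamycin against vehicle these counts were 5 and 1 in WT, beside 14.8%, and 0 and 0 in LKO, beside 12.2%. The 10 stellate cell and fibroblast markers share Col1a1, Col1a2 and Col3a1 with that list, so the lists are not separate observations. These markers (8 tested, 0 called by edgeR) summed to 71.4 to 115 CPM in WT vehicle and 98.2 to 139 CPM in WT tunicamycin. In LKO they summed to 124 to 172 CPM with vehicle and 116 to 186 CPM after tunicamycin. Of those tested, 7 were higher in LKO with vehicle and 8 after tunicamycin. Their part in the Serpinh1 values was not tested.

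The Serpinb genes encode inhibitors that stay in the cytosol or nucleus. Of the 27 members, 2 were tested. Serpinb9 (chromosome 13, 33004541 to 33017955), an inhibitor of granzyme B, stood at 1.80, 1.79 and 1.75 CPM in WT vehicle, 1.79, 2.27 and 1.70 CPM in WT tunicamycin, 2.25, 3.58 and 2.25 CPM in LKO vehicle, and 3.06, 2.34, 2.85 and 3.15 CPM in LKO tunicamycin, on 11 to 49 reads. The LKO samples lay above the WT samples with either treatment, and the log2 difference was 0.60 ± 0.25 with vehicle (adjusted p of 0.55, edgeR) and 0.58 ± 0.25 after tunicamycin (adjusted p of 0.28), so Serpinb9 was not called. Serpinb6a, an inhibitor of cathepsin G, ranged from 1.92 to 3.97 CPM, with a log2 difference of LKO against WT of 0.32 ± 0.26 with vehicle and 0.49 ± 0.26 after tunicamycin (adjusted p of 0.786 and 0.371). The 10 markers of T, NK and B cells, the cells in which granzymes are made, summed to 0.4 to 0.6 CPM in WT vehicle, 0.1 to 0.5 CPM in WT tunicamycin, 0.4 to 1.7 CPM in LKO vehicle and 0.5 to 1.2 CPM in LKO tunicamycin, and none had enough reads to be tested. Their part in the Serpinb9 values was not tested.

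Serpine2 (chromosome 1, 79794321 to 79858665, minus strand) encodes protease nexin 1, a cell surface inhibitor of thrombin, urokinase and plasmin. Its promoter window is shown because it sets Serpine2 apart from the plasma serpins in base composition. The 300 bases around the RefSeq start, chr1:79858616-79858915 on the minus strand of GRCm38.p6, are printed with CG pairs in capitals.
Serpine2: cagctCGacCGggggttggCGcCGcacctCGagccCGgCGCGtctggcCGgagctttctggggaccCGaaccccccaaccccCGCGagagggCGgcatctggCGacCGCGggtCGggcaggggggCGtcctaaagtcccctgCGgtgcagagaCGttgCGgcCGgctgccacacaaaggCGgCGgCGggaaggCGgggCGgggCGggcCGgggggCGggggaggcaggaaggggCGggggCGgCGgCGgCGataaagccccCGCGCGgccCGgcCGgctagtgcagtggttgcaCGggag
The window holds 41 CG pairs. The median over the promoter windows of this length (1 chromosome left out) was 7, and 3.46% of them held at least 41. The windows of the tested Serpina genes in the table held 0 to 7, that of Serpinf1 held 3, that of Serpinb9 held 5, the pair for Serpinb6a held 5 and 25, and that of Serpinh1 held 16. This describes the sequence and not its methylation or histone marks, which were not analysed here.

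Serpine2 was at 8.62, 5.77 and 7.87 CPM in WT vehicle and 7.57, 6.49 and 5.56 CPM in WT tunicamycin. In LKO it was at 1.78, 2.92 and 1.90 CPM with vehicle and 3.06, 1.69, 1.12 and 1.19 CPM after tunicamycin. Every LKO sample lay below every WT sample, and the values rest on 11 to 72 reads each. The WT mean was 7.42 ± 1.48 CPM with vehicle and 6.54 ± 1.01 CPM after tunicamycin (SD, n = 3 each). The LKO mean was 2.20 ± 0.628 CPM with vehicle (n = 3) and 1.77 ± 0.901 CPM after tunicamycin (n = 4). The log2 difference of LKO against WT was -1.73 ± 0.28 (SE) with vehicle, with an adjusted p of 0.036 (edgeR), and -1.93 ± 0.29 after tunicamycin, with an adjusted p of 0.0102. For tunicamycin against vehicle it was -0.18 ± 0.26 in WT (adjusted p of 0.809) and -0.38 ± 0.32 in LKO (adjusted p of 0.693), and the interaction was -0.20 ± 0.41 (adjusted p of 0.999).

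The authors' FPKM of Serpine2 did not overlap between the genotypes, at 0.866 to 1.78 in WT and 0.220 to 0.603 in LKO. On FPKM, limma called Serpine2 only after tunicamycin, and only with a filter. The FPKM fits took all 14 libraries, with LKO vehicle libraries 3 and 4 not summed. On log2(FPKM + 1) the difference was -0.76 with vehicle (adjusted p of 0.163 without a filter and 0.113 with one) and -0.59 after tunicamycin (adjusted p of 0.0869 and 0.0458). On log2(FPKM + 0.1) it was -1.51 with vehicle and -1.35 after tunicamycin (adjusted p of 0.139 and 0.0716), so its size at these levels depended on the pseudocount. LKO vehicle sample 1, which had WT-like Rbbp5, had 1.78 CPM of Serpine2. The call with vehicle was lost without any 1 of the 3 WT vehicle samples, LKO vehicle samples 1 or 3-4, or LKO tunicamycin sample 2, with log2 differences of -1.90 to -1.60 in those fits, and the call after tunicamycin was lost without WT tunicamycin sample 1 (-1.81, adjusted p of 0.0826, edgeR). In whole liver RNA, fewer cells of a type and less RNA per cell cannot be told apart. The stellate cell and fibroblast markers given above were on balance higher in LKO, with median log2 differences of 0.87 with vehicle and 0.76 after tunicamycin. The 10 endothelial markers summed to 98.3 to 107 CPM in WT vehicle, 103 to 106 CPM in WT tunicamycin, 82.8 to 128 CPM in LKO vehicle and 87.9 to 114 CPM in LKO tunicamycin, so LKO and WT overlapped. The part of these cell types in the Serpine2 values was not tested.

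**Figure D5:**
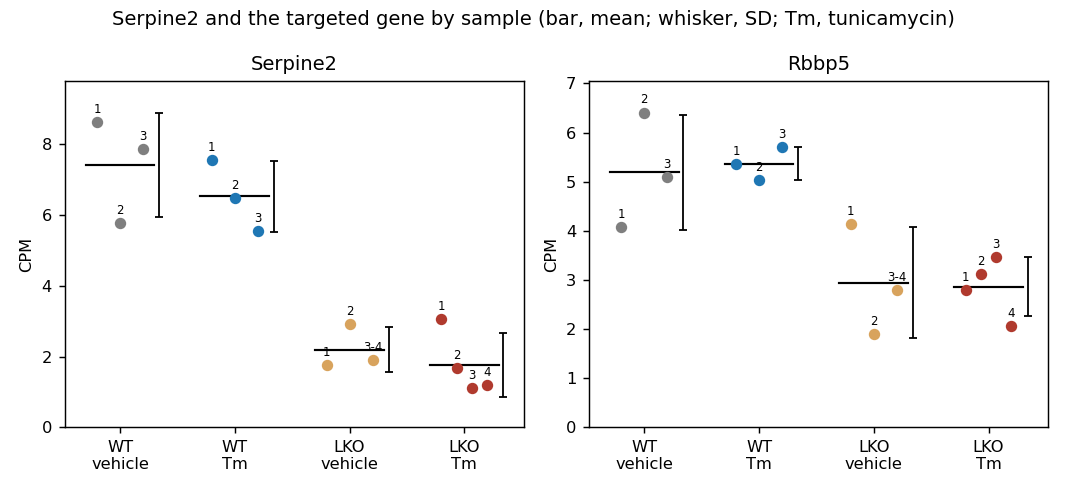
CPM of Serpine2 (left) and of Rbbp5 (right) in each sample (points, numbered by replicate) with the group mean (bar) and SD (whisker). All LKO samples lie at or under 3.06 CPM of Serpine2 and all WT samples at or over 5.56, while for Rbbp5 LKO vehicle sample 1 (4.15 CPM) lies above WT vehicle sample 1 (4.07 CPM).

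The genes that serpins act on, or that act on serpin genes, were taken from lists chosen by their known roles. Of 13 genes of plasminogen activation and of the clearance of protease-serpin complexes, 7 were tested and 0 were called in any comparison by edgeR. DESeq2 called 1 (Vtn) for tunicamycin in WT, beside 153 of all 16249 genes it tested. At an unadjusted p under 0.05 in edgeR there were 2 for tunicamycin in WT, beside 14.8% of all genes, and 0 in LKO, beside 12.2%. For LKO against WT there was 1 with vehicle, beside 8.15%, and 1 after tunicamycin, beside 15.8%. Of 15 proteases that serpins inhibit, 6 were tested. Ctsl, which encodes cathepsin L, was the 1 called for tunicamycin in WT, beside 0.363% of all genes, and 0 were called in the other comparisons. At an unadjusted p under 0.05 (edgeR) there were 2 for tunicamycin in WT, beside 14.8% of all genes, and 3 in LKO, beside 12.2%. For LKO against WT there were 2 with vehicle, beside 8.15%, and 2 after tunicamycin, beside 15.8%. All of these were higher. Ctsl stood at 72.4, 76.5 and 80.5 CPM in WT vehicle and 140.2, 139 and 107 CPM in WT tunicamycin, a log2 difference of 0.75 ± 0.16 (adjusted p of 0.0465, edgeR). In LKO it stood at 108, 115 and 83.4 CPM with vehicle and 139, 133, 138 and 107 CPM after tunicamycin, which overlapped. The Ctsl difference kept its sign in all 24 alternatives (0.558 to 0.868), was called in 9 of them, and was lost as a call without any 1 of the WT vehicle or LKO tunicamycin samples, WT tunicamycin samples 1 or 2, or LKO vehicle sample 1. Without WT tunicamycin sample 3, Ctsl and Prtn3 were both called for tunicamycin in WT, beside 6.19% of all genes.

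All 14 transcription factors and receptors known to act on liver serpin genes were tested. Hnf4a was the 1 called for LKO against WT after tunicamycin, beside 0.861% of all genes. In that comparison 2 of the 14 had an unadjusted p under 0.05 (edgeR) and were lower in LKO, beside 15.8% of all genes. For tunicamycin there were 3 in WT, beside 14.8%, and 3 in LKO, beside 12.2%. For the genotypes with vehicle there were 0, beside 8.15%. Hnf4a, a nuclear receptor that drives many hepatocyte genes, stood after tunicamycin at 183, 173 and 164 CPM in WT and 121, 119, 115 and 122 CPM in LKO. These groups did not overlap, and the log2 difference was -0.54 ± 0.12 (adjusted p of 0.0405, edgeR). It kept its sign in all 24 alternatives (-0.580 to -0.364), was called in 9 of them, and was lost as a call without any 1 of the WT vehicle or LKO tunicamycin samples or WT tunicamycin samples 1 or 2. With vehicle it stood at 154, 156 and 152 CPM in WT and 123, 134 and 161 CPM in LKO, which overlapped, and the log2 difference was -0.14 ± 0.12 (adjusted p of 0.812). The difference between the genotype effects on Hnf4a with the treatments was -0.40 ± 0.17 (adjusted p of 0.938). Without WT tunicamycin sample 3, 2 of the 14 genes (Osmr and Stat3) were called for tunicamycin in WT, beside 6.19% of all genes. The same fit called 2 (Hnf4a and Osmr) for LKO against WT after tunicamycin, beside 64 of all 9941 genes.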

How the data were processed

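The deposited gene counts are STAR's, as whole reads, per the file headers, where multimapping reads stand apart from the genes. The submitters' processing notes name Trimmomatic, STAR, Cufflinks and build mm10. The authors also deposited FPKM for the same 14 libraries, used here for levels between genes and as an alternative. Sense-strand counts (99.5 to 99.6% of stranded reads) were used, and 0 sample columns were left unused. LKO vehicle libraries 3 and 4 (chi-square per degree of freedom 1.12, against 3.05 to 25.5 in the other 17 pairs) were summed. Counts were fitted with edgeR 4.0.16 in R 4.3.3 (TMM, filterByExpr, 1 mean per group, 13 samples, 9 residual degrees of freedom) with Benjamini-Hochberg adjustment over 9644 genes. FPKM alternatives used limma 3.58.1 on log2(FPKM + 1) or log2(FPKM + 0.1). They took 14 libraries, with LKO vehicle libraries 3 and 4 as separate samples. DESeq2 1.42.0 was a further alternative. The edgeR, DESeq2 and limma fits were also run on simulated counts. Large changes were planted there in more highly expressed genes, with the same spread for all genes. This does not cover small changes, low counts or a deviant sample. Reads carry no molecular identifiers here, so depth limits cover counting error only. Coding sequences were aligned with mafft 7.526; loops were located by a hinge pattern in the longest reading frame. Promoter windows are from RefSeq (GRCm38.p6) for 49 of the 58 members.

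Members, gene lists and tests were chosen with earlier results of these data known. Tested members are all named, and 1 untested member is not reported here; values by sample are given for called members, for up to 2 per direction and comparison with the largest log2 fold change at a mean log2 CPM of at least 2, for the 6 with the highest mean CPM, and for Serpinb9, chosen after its values were seen. Of listed partner genes, those called are named.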

Additional observations from a re-analysis of the deposited data

How the results depend on the processing

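Calls and log2 differences were recomputed under up to 24 alternatives (23 for the interaction, and fewer for a gene that missed a filter). Called serpins, which were 0 for tunicamycin in WT, numbered 1 with total count scaling, 1 with DESeq2 and 1 with the replicate block on 14 libraries (Serpina10 each time), and 4 without a filter on low counts (Serpina10, Serpina3m, Serpina3n and Serpina7). Leaving out samples in turn gave 0 to 4: 4 without WT tunicamycin sample 3 (Serpina10, Serpina11, Serpina3m and Serpina3n), and 1 (Serpina10) without LKO vehicle sample 2 or 3-4. For tunicamycin in LKO, where 0 were called, DESeq2 called 1, no filter 2 (Serpina10 and Serpina7) and the replicate block 1. For the genotypes with vehicle (1 called), the 3 FPKM fits called 0 and leaving out samples gave 0 to 1. After tunicamycin (1 called), DESeq2 called 2 (Serpina1c and Serpine2), FPKM without a filter 0 with either pseudocount, and leaving out samples gave 0 to 1. The interaction called 0 serpins in every alternative. The cause of these changes was not tested.

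Over all genes, tunicamycin in WT (35 called) gave 148 with total counts, 153 with DESeq2, 289 without a filter, 56 with 14 libraries, 53 with unstranded counts, 0 and 3 with unfiltered log2(FPKM + 1) and log2(FPKM + 0.1), 7 with only its groups, and 0 to 615 without 1 sample. Tunicamycin in LKO (3 called) gave 46 with DESeq2, 153 without a filter, 5 with 14 libraries, 1 with log2(FPKM + 1), and 0 to 67 without 1 sample. LKO against WT with vehicle (4 called) gave 8, 15, 84 and 12 with total counts, DESeq2, no filter and 14 libraries, 0, 1 and 0 in the FPKM fits, 25 with only its groups, and 0 to 17 without 1 sample. After tunicamycin (83 called) it gave 164, 130 and 261 with total counts, DESeq2 and no filter, 7 and 10 with unfiltered FPKM, 27 with only its groups, and 0 to 183 without 1 sample. The interaction gave 1 with log2(FPKM + 0.1) and 0 to 2 without 1 sample.

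Same-number libraries showed little correlation: that of their deviations ran from -0.12 to 0.14 over 19 same-number pairs, 3 of them over 0.1. Of the 14 libraries, 3 correlated best with their own number. With so few libraries per group, this cannot decide whether a number marks a shared litter, day or batch. The replicate block was fitted on 14 libraries, with LKO vehicle libraries 3 and 4 not summed. It called 69 genes for tunicamycin in WT, 72 in LKO, 10 for the genotypes with vehicle and 90 after tunicamycin, against 56, 5, 12 and 115 on the same 14 libraries without the block.

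The following differences changed sign in at least 1 alternative, and none of them was called in the report. Leaving out samples, the log2 difference of LKO against WT after tunicamycin ranged from -0.157 to 0.275 for Serpina1e (below 0 without WT tunicamycin sample 3 or LKO tunicamycin samples 1 or 2) and from -0.211 to 0.653 for Serpina7 (below 0 without WT tunicamycin samples 2 or 3 or LKO tunicamycin sample 2). With vehicle it ranged from -0.0068 to 0.98 for Serpina3n (below 0 without LKO vehicle sample 2), and the interaction of Serpina7 ranged from -0.327 to 0.709. The Serpina1 sum ranged from -0.0446 to 0.252 for the genotypes with vehicle and from -0.181 to 0.108 after tunicamycin. The latter was 0.0909 with total counts, 0.0412 in the 3 FPKM fits and 0.0066 with the replicate block. The interaction of the Serpina3 sum ranged from -0.266 to 0.0653, and was 0.0619 with total counts and 0.0721, 0.0722 and 0.0721 in the FPKM fits. Of the 69 other pairs of a tested serpin and a comparison, none of which was called in the report, 37 kept their sign in every alternative and 4 were called in at least 1. The 40 untested members had at most 99 reads over all libraries. The fit without a filter took in 23 of them and called 0 in each comparison (lowest adjusted p of 0.198). Before adjustment, p was under 0.05 for 2 of these in the genotypes after tunicamycin, for 1 with tunicamycin in LKO and for 0 otherwise.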
